A study of Mus musculus with 4 samples.

Results

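Granule and receptor genes of basophils, mast cells and eosinophils were followed in osteoclast progenitors from mouse bone marrow. The group consisted of 10 genes given by symbol, namely Mcpt8, Prss34, Cpa3, Hdc, Fcer1a, Ms4a2, Cd200r3, Gata2, Prg2 and Epx. All 10 were found among the 18276 genes of the table, and all 10 passed the filter on low values. The cells had been sorted from fresh marrow as CD115-positive cells that lacked B220, CD3 and Mac-1. CD115 is the receptor encoded by Csf1r, and Mac-1 is the integrin whose alpha chain is encoded by Itgam. In 2 libraries (Ptip_KO) the mice carried Ptip flox/flox and the Mx-1Cre driver, and in 2 libraries (WT) they carried Mx-1Cre with wild-type Ptip. All mice were on a B6;129 background. Mx-1Cre is switched on by interferon and acts in blood cells and in other interferon-responsive cells, so that deletion need not be restricted to the sorted cells. How and when the driver was induced, and the age of the mice, are not given in the sources used here. The series calls the replicates independent but does not tie them to different mice, and a p-value here reflects only how far these 4 samples differ.

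Basophils, mast cells and eosinophils are granulocytes of allergy and of the defence against parasites. Basophils and mast cells bind IgE through the high-affinity receptor FcεRI, and crosslinking of this receptor releases histamine and proteases stored in their granules. Eosinophil granules hold basic toxic proteins and a peroxidase. All of these cells arise in the bone marrow from progenitors that express the transcription factor Gata2.

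Deletion of Ptip (gene symbol Paxip1) was visible in both Ptip_KO libraries, which had 5.10 and 3.73 CPM (the read count scaled by the authors to the effective library size), against 106 and 103 CPM in the WT libraries. The libraries held between 67592972 and 77773478 reads, and a gene with no read could still have up to 3 reads, or 0.0380 to 0.0428 CPM, by counting error alone. Of the genes of the sorting antigens, Csf1r stood at 606 to 825 CPM and Itgam at 35.1 to 42.1 CPM, and the 3 CD3 chain genes stood at 0 to 0.418 CPM. B220 is a form of the protein of Ptprc, which is read here as a whole (454 to 608 CPM) and does not check that gate. WT replicate 2 stood apart in sex-linked genes. Xist was at 298 CPM there and at no more than 0.0814 CPM elsewhere, and Ddx3y, on the Y chromosome, was at 0.101 CPM there and at 69.1 CPM or more elsewhere.

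None of the 10 genes passed the test between Ptip_KO and WT, and for every one of them the values of the 2 groups overlapped. In both groups, replicate 2 had more of all 10 transcripts than replicate 1, about 2-fold more for most basophil and mast cell genes and about 5- to 6-fold more for the eosinophil granule genes. For Cd200r3 in WT this difference was within counting error. Summed over the 10 genes, Ptip_KO replicates 1 and 2 had 180.7 and 338 CPM, and WT replicates 1 and 2 had 191 and 484 CPM. Hdc was the largest part of each sum, with 107 and 126 CPM in Ptip_KO, against 64.4 and 143 CPM in WT. It alone of the 10 genes was lowest in WT replicate 1, which brings the sums of the replicate 1 libraries closer together. In a bulk sample, fewer cells of a type and less RNA per cell cannot be told apart.

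**Figure D1:**
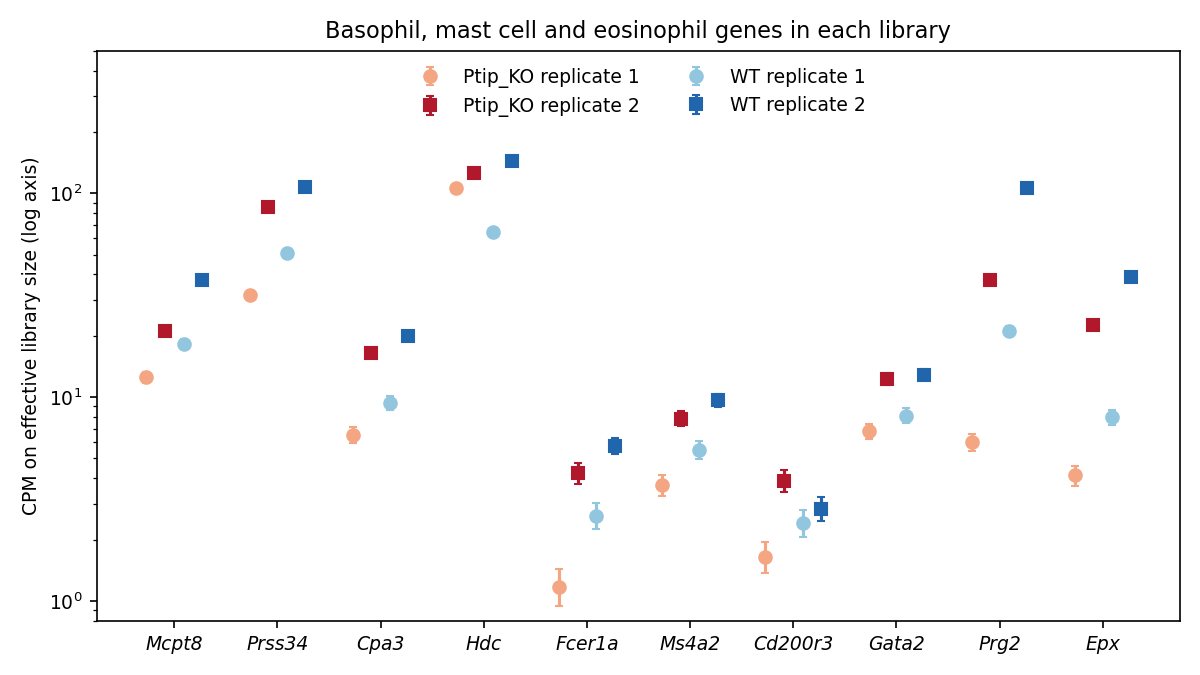
CPM of the 10 genes in each of the 4 libraries, on a log axis, with exact Poisson 95% intervals of the read counts (counting error only). For every gene the ranges of the Ptip_KO points (red) and the WT points (blue) overlap, and the squares (replicate 2) lie above the circles (replicate 1) of the same group.

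Mcpt8 and Prss34 encode the serine proteases of mouse basophil granules, mast cell protease 8 and protease serine 34. Mcpt8 (ENSMUSG00000022157.8, chromosome 14, 56082166 to 56085273, minus strand, mm10) had 12.5 and 21.1 CPM in Ptip_KO replicates 1 and 2 and 18.3 and 37.5 CPM in WT replicates 1 and 2. Ptip_KO replicate 2 lay between the 2 WT libraries. Prss34 (ENSMUSG00000056399.1, chromosome 17, 25298394 to 25300165, plus strand) had 31.8 and 85.8 CPM in Ptip_KO, against 51.1 and 107.5 CPM in WT. Here too the groups overlapped, with the lowest value in Ptip_KO replicate 1 and the highest in WT replicate 2. The log2 fold change of Ptip_KO against WT, on the log2(CPM + 1) scale, was −0.66 for Mcpt8 (95% confidence interval −1.59 to 0.27, limma adjusted p = 0.359) and −0.50 for Prss34 (−1.80 to 0.81, limma adjusted p = 0.626). Without WT replicate 1, which left a lone WT library, the log2 fold change of Mcpt8 was −1.16. Over all libraries left out in turn it ran from −1.16 to −0.16.

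Cpa3 and Hdc encode granule-associated enzymes, carboxypeptidase A3 and histidine decarboxylase, which makes histamine. Cpa3 (ENSMUSG00000001865.2, chromosome 3, 20215620 to 20242181, minus strand) had 6.53 and 16.5 CPM in Ptip_KO, against 9.38 and 19.8 CPM in WT, again with both groups spanning most of the range. Hdc (ENSMUSG00000027360.5, chromosome 2, 126593667 to 126619299, minus strand) had 107 and 126 CPM in Ptip_KO, against 64.4 and 143 CPM in WT. It was the only one of the 10 genes with its lowest value in a WT library, and the only one with a positive log2 fold change (0.27, 95% confidence interval −0.61 to 1.14, limma adjusted p = 0.705). For Cpa3 the log2 fold change was −0.36 (−1.55 to 0.83, limma adjusted p = 0.707). The direction of Hdc depended on which WT library was used. Its log2 fold change was 0.84 without WT replicate 2 and −0.31 without WT replicate 1, with a lone WT library in each fit.

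Fcer1a and Ms4a2 encode the IgE-binding alpha chain and the signal-amplifying beta chain of FcεRI. Fcer1a (ENSMUSG00000005339.10, chromosome 1, 173221284 to 173227214, minus strand) had 1.17 and 4.23 CPM in Ptip_KO, against 2.62 and 5.77 CPM in WT. Its lowest value, in Ptip_KO replicate 1, rested on 89 reads. Ms4a2 (ENSMUSG00000024680.12, chromosome 19, 11615523 to 11623719, minus strand) had 3.70 and 7.82 CPM in Ptip_KO, against 5.51 and 9.62 CPM in WT. For both chains the libraries stood in the same order, Ptip_KO replicate 1, WT replicate 1, Ptip_KO replicate 2 and WT replicate 2. The log2 fold changes were −0.56 for Fcer1a (95% confidence interval −1.75 to 0.64, limma adjusted p = 0.542) and −0.37 for Ms4a2 (−1.27 to 0.53, limma adjusted p = 0.594).

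Cd200r3 encodes an activating relative of the CD200 receptor found on basophils and mast cells. Cd200r3 (ENSMUSG00000036172.17, chromosome 16, 44943678 to 44981380, plus strand) had 1.64 and 3.88 CPM in Ptip_KO, against 2.40 and 2.83 CPM in WT. Both the lowest and the highest value were in Ptip_KO, and the 2 WT libraries lay between them. The log2 fold change was −0.01 (95% confidence interval −0.76 to 0.75, limma adjusted p = 0.992), and its sign changed with the pseudocount, the scaling and the test. Gata2 (ENSMUSG00000015053.14, chromosome 6, 88193891 to 88207032, plus strand), which encodes a zinc finger factor that also maintains blood stem cells, had 6.80 and 12.2 CPM in Ptip_KO, against 8.11 and 12.9 CPM in WT. The replicate 2 libraries of both groups were nearly level. Its log2 fold change was −0.15 (−0.91 to 0.62, limma adjusted p = 0.823).

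Prg2 and Epx encode the eosinophil granule proteins major basic protein and eosinophil peroxidase. Prg2 (ENSMUSG00000027073.5, chromosome 2, 84980461 to 84983632, plus strand) had 6.003 and 37.6 CPM in Ptip_KO, against 21.2 and 106 CPM in WT. Ptip_KO replicate 2 was above WT replicate 1, and WT replicate 2 stood well above the other libraries. Epx (ENSMUSG00000052234.2, chromosome 11, 87864000 to 87875536, minus strand) had 4.13 and 22.5 CPM in Ptip_KO, against 7.96 and 38.7 CPM in WT, in the same order of libraries as Prg2. Prg2 had the most negative log2 fold change of the 10 genes, −1.57, and also the widest confidence interval (−4.04 to 0.90, limma adjusted p = 0.406). Epx had −0.78 (−3.05 to 1.49, limma adjusted p = 0.662). Without WT replicate 1, which left a lone WT library, the log2 fold change of Prg2 was −2.70. It ran from −2.80 to −0.34 over all libraries left out in turn. Without WT replicate 2 the log2 fold changes were −0.43 for Prg2 and 0.29 for Epx.

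**Figure D2:**
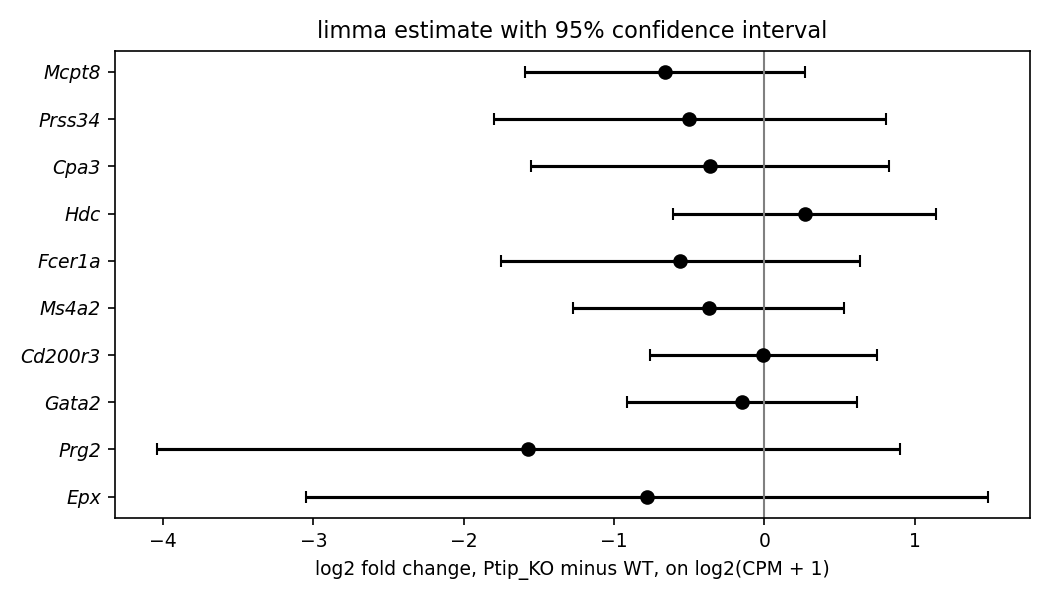
Log2 fold change of Ptip_KO against WT on the log2(CPM + 1) scale for each gene (points), with limma 95% confidence intervals (bars). All 10 intervals include 0, and those of Prg2 and Epx are the widest.

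Of all 12357 genes tested, 3.86% were called lower and 2.43% higher in Ptip_KO by limma at an adjusted p under 0.05 (Benjamini-Hochberg), against 0 of the 10 genes in either direction. None of the 10 had an unadjusted limma p under 0.05, and adjusted p ran from 0.359 to 0.992. The edgeR quasi-likelihood test on the recovered reads called 0 of 10 as well (adjusted p 0.359 to 0.932), with 5.34% of all genes called in either direction. DESeq2 also called 0 of 10 (0.541 to 0.958), with 15.4% of all genes called. With 10 genes and such background shares, a count of 0 is near what the whole table shows. In no gene of the 10 did both Ptip_KO libraries lie below or above both WT libraries, whereas 27.3% of all tested genes lay wholly below and 27.7% wholly above. The median log2 fold change was −0.43 over the 10 genes, 9 of them negative, and 0.00 over all tested genes. Exact permutation of 2 against 2 libraries cannot give a two-sided p under 0.333. On the log2(CPM + 1) scale, the confidence intervals reached past a 2-fold difference for 8 of the 10 genes, all but Gata2 and Cd200r3, so a missed threshold does not show equal levels. Without WT replicate 2, the library that stood apart in sex-linked genes, Mcpt8 moved to −0.16, Fcer1a to −0.10 and Ms4a2 to −0.01, and the log2 fold changes were 0.03 for Prss34, 0.15 for Cpa3, 0.16 for Gata2 and 0.08 for Cd200r3, each of these last 4 with its sign turned. None of these 7 genes was called without that library.

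The spread between replicates of a group was the main feature of these genes. The median difference of replicate 2 over replicate 1 was 1.06 on the log2(CPM + 1) scale in Ptip_KO and 1.00 in WT, against −0.03 and −0.04 over all tested genes. All 10 genes were higher in replicate 2 in both groups, as were 26.5% of all tested genes. The counting intervals of the 2 replicates were apart for 10 genes in Ptip_KO and for 9 in WT. In WT those of Cd200r3 overlapped (2.06 to 2.78 and 2.47 to 3.22 CPM). The exact order Ptip_KO replicate 1, WT replicate 1, Ptip_KO replicate 2, WT replicate 2 from low to high was found for 8 of the 10 genes (all but Hdc and Cd200r3) and for 3.03% of all tested genes. Whether replicate 2 of a group shares a litter or day with replicate 2 of the other is not given in the labels.

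**Figure D3:**
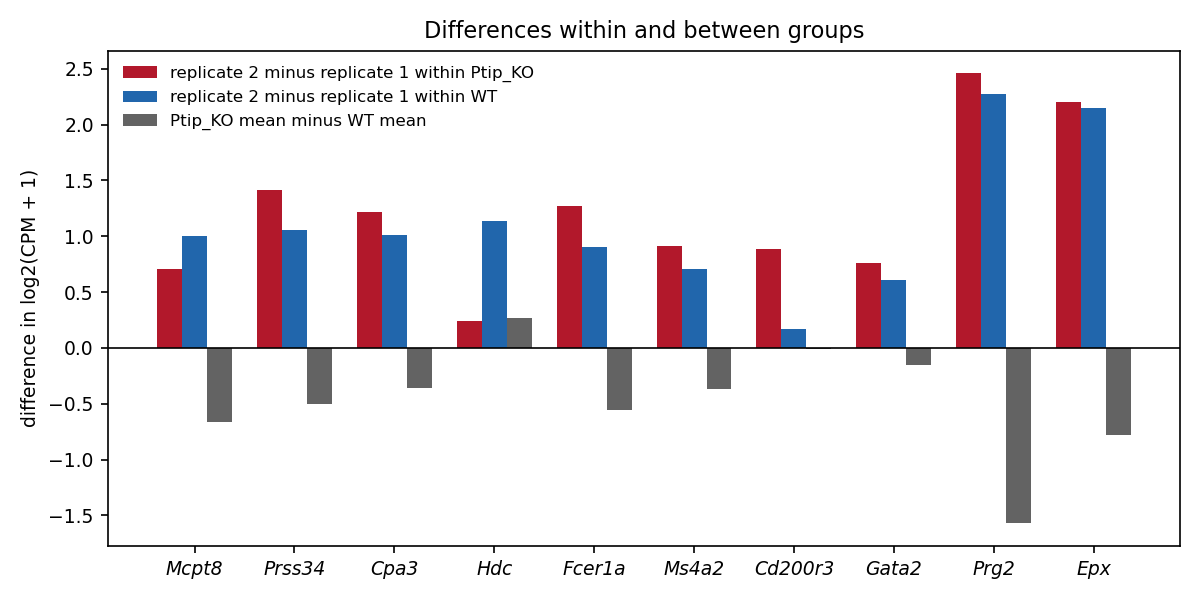
Differences in log2(CPM + 1) for each gene between replicates 2 and 1 of Ptip_KO (red bars), between replicates 2 and 1 of WT (blue bars) and between the group means (grey bars). The replicate bars all point up and exceed 2 for Prg2 and Epx, while 9 of 10 group bars point down or lie at 0.

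The eosinophil genes varied more than the basophil and mast cell genes. Prg2 was 6.27-fold higher in replicate 2 than in replicate 1 of Ptip_KO and 5.01-fold higher in WT, and Epx was 5.45-fold and 4.86-fold higher. Among the basophil and mast cell genes, the ratio of replicate 2 to replicate 1 ran from 1.18 (Hdc) to 3.61 (Fcer1a) in Ptip_KO and from 1.18 (Cd200r3) to 2.23 (Hdc) in WT. The sum of Prg2 and Epx was 0.229 times that of Mcpt8 and Prss34 in Ptip_KO replicate 1 and 0.562 times in replicate 2, and 0.4205 and 0.999 times in WT replicates 1 and 2. The ratio was thus not fixed across libraries, and the ratios of the 2 groups overlapped. These 4 genes are the granule genes listed for basophils alone (Mcpt8, Prss34) or eosinophils alone (Prg2, Epx). None of the 10 is listed for mast cells alone. The ratio was chosen after the values of these genes were seen.

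**Figure D4:**
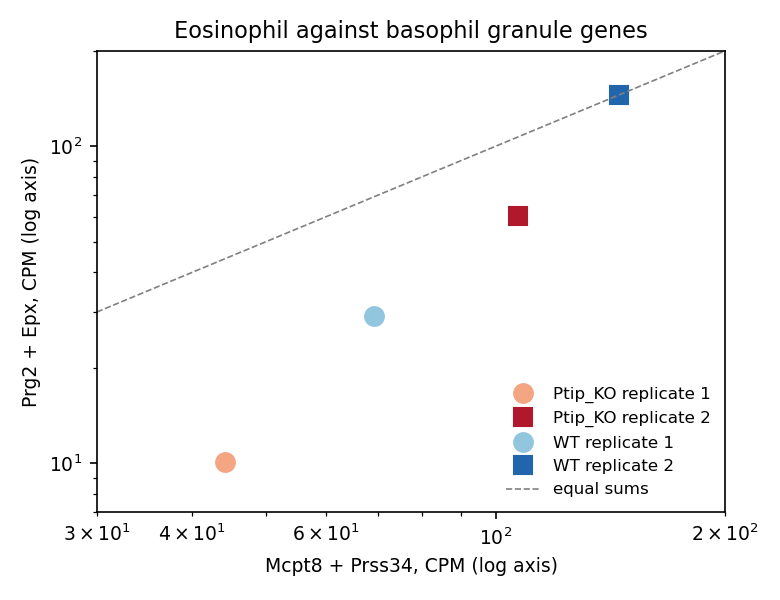
Summed CPM of Prg2 and Epx against summed CPM of Mcpt8 and Prss34, 1 point per library, both axes on a log scale, with a dashed line of equal sums. WT replicate 2 lies on the line with 145 CPM on both axes, and Ptip_KO replicate 1 lies lowest with 10.1 against 44.2 CPM.

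Per kilobase of exon, the 10 genes covered a wide range of levels. As means of the 4 libraries, Prss34 was highest at 56.6 CPM per kilobase (26 to 88.1), followed by Prg2 at 51.0 (7.16 to 127), Mcpt8 at 22.4 (12.5 to 37.5) and Hdc at 17.2 (10.1 to 22.4). The middle of the order was held by Cpa3 at 8.61 CPM per kilobase (4.30 to 13.1) and Epx at 6.69 (1.51 to 14.1). Both IgE receptor chains were lower, with 3.45 CPM per kilobase for Fcer1a (1.17 to 5.78) and 2.37 for Ms4a2 (1.32 to 3.42). Gata2 had 1.86 CPM per kilobase (1.26 to 2.39) and Cd200r3 0.449 (0.274 to 0.649). The order differed between libraries. In WT replicate 2, Prg2 (127 CPM per kilobase) was above Prss34 (88.1), and in Ptip_KO replicate 1, Prg2 (7.16) was below Hdc (16.7) and Mcpt8 (12.5). Neighbours in the order of means overlapped in their ranges over the 4 libraries, except Gata2 and Cd200r3. Lengths are those of all annotated exons of a gene joined, so a gene with long rarely used exons is set too low.

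Because most of these genes stood in the same order across libraries, the stretch next to their start sites was read for letters that GATA factors, including Gata2, are known to bind. The strings searched were GATAA and, as a further string, GATAG, each with an A or a T before it, on both strands, with overlapping matches counted separately. RefSeq promoter sequences (GRCm38.p6) were matched for 9 of the 10 genes, and Prg2 was not matched. In the 250 bases before the start, 6 of the 9 genes held at least 1 match (Prss34, Cpa3, Hdc, Fcer1a, Ms4a2 and Cd200r3), as did 26.5% of 32851 promoters of all genes. At least 3 matches were found for Ms4a2 and Cd200r3, and for 1.35% of all promoters. The 120 bases before the start are printed for the 5 genes with a match there, 5′ to 3′ on the gene's strand, with matches to these strings or their reverse complements in capitals. They lie at chr17:25298274-25298393 (plus strand), chr3:20242182-20242301 (minus), chr1:173227230-173227349 (minus), chr19:11623720-11623839 (minus) and chr16:44943558-44943677 (plus).

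Prss34: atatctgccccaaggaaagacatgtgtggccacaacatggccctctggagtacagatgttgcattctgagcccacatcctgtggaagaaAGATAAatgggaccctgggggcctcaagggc
Cpa3: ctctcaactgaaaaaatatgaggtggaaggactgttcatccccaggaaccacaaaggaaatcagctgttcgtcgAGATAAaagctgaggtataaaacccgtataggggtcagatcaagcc
Fcer1a: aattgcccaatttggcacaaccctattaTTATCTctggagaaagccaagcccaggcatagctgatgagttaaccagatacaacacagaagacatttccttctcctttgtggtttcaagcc
Ms4a2: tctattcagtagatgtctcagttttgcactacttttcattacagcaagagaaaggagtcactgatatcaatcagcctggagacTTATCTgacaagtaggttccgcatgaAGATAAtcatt
Cd200r3: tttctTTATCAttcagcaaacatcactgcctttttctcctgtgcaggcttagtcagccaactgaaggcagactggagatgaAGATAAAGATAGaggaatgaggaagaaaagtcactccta

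In Cd200r3 the last 2 matches follow each other without a gap. A match is a description of the letters and does not show binding, and genes without a match in this window may hold one elsewhere.

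The genes whose pattern over the 4 libraries was nearest to the mean pattern of the 10 genes were Itga2b, Igkv8-30, Prom1, Prkca and Vcam1, at distances of 0.223 to 0.319 (Euclidean distance of centred log2(CPM + 1) values over 4 libraries). Among the 10 genes themselves, Cpa3, Prss34 and Fcer1a were nearest to that mean (0.129 to 0.171), as they are part of it, and Prg2 was farthest (1.64). The mean pattern was −0.84 in Ptip_KO replicate 1, 0.37 in Ptip_KO replicate 2, −0.32 in WT replicate 1 and 0.78 in WT replicate 2.

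Other genes of these cells were read from a list of 80 by role, of which 55 passed the filter. Of these, 3 fell in Ptip_KO (Kit, Grap2 and Adgre4) and none rose by limma, with a median log2 fold change of −0.09, beside 3.86% of all tested genes lower and 2.43% higher. By edgeR 3 fell and none rose, beside 417 lower and 243 higher of all 12357 tested genes (5.34% called). By DESeq2 9 fell and 2 rose, beside 1126 lower and 780 higher of all 12357 (15.4% called). Among the 55 genes, 12 had an unadjusted limma p under 0.05, as did 23.8% of all tested genes. By limma and edgeR these counts are near the shares over all genes. By DESeq2 the count that fell is above its share, and the count that rose is below. Counts with 1 library left out rest on a lone library in 1 group, and are given below beside those over all genes. Kit, Grap2 and Adgre4 kept their call in all 15 alternatives run.

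Among surface and cytokine receptors, 1 of 11 tested genes fell. Kit, the stem cell factor receptor that mast cells and early progenitors carry, had 14.4 and 16.1 CPM in Ptip_KO, against 49.5 and 73.1 CPM in WT. The groups were well apart, and the log2 fold change was −1.91 (SE 0.19, limma adjusted p = 0.00908). Il18r1, a chain of the interleukin 18 receptor, had 0.223 and 0.5995 CPM in Ptip_KO, against 1.64 and 2.59 CPM in WT (limma adjusted p = 0.0553 with all libraries). DESeq2 called Il18r1 lower (adjusted p = 0.00476) and edgeR did not (0.0832). With 1 library left out, limma called it lower without WT replicate 1 (adjusted p = 0.0063) or WT replicate 2 (0.0448) and not without Ptip_KO replicate 1 (0.199) or Ptip_KO replicate 2 (0.0762). Il3ra, the alpha chain of the receptor for interleukin 3, the main growth factor of basophils, had 78.2 and 80.8 CPM in Ptip_KO, against 64.6 and 68.1 CPM in WT (log2 fold change 0.26, limma adjusted p = 0.142).

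Of 13 tested genes of IgE receptor signalling, 1 fell. Grap2, an adaptor that links LAT to SLP-76, had 5.15 and 5.48 CPM in Ptip_KO, against 16.9 and 13.9 CPM in WT, with no overlap (log2 fold change −1.37, SE 0.14, limma adjusted p = 0.00936). A further annotated transcript lies within Grap2 on the same strand, so its reads may be included. The kinase Fyn had 26.7 and 29.0 CPM in Ptip_KO, against 39.7 and 36.1 CPM in WT (limma adjusted p = 0.0712, and 0.0298 without WT replicate 2), and the adaptor Gab2 had 65.2 and 63.9 CPM against 50.9 and 52.6 CPM (limma adjusted p = 0.0907). DESeq2 called Fyn lower (adjusted p = 0.00824) and Gab2 higher (0.0194). The common gamma chain Fcer1g, which FcεRI shares with other Fc receptors, averaged 253 ± 34.6 CPM in the Ptip_KO libraries and 307 ± 57.2 CPM in the WT libraries (SD, n = 2 each, limma adjusted p = 0.382).

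None of 16 tested transcription factor genes passed by limma or edgeR, 3 had an unadjusted limma p under 0.05, and DESeq2 called 2 lower (Gata1 and Zfpm1) and 1 higher (Runx1). Gata1, which eosinophils, mast cells and red cell precursors share, had 1.91 and 4.94 CPM in Ptip_KO, against 8.09 and 12.1 CPM in WT, and did not pass (log2 fold change −1.39, limma adjusted p = 0.0872). With Ptip_KO replicate 2 left out it was called lower by limma (adjusted p = 0.00805), as it was with WT replicate 1 (0.00907) or WT replicate 2 (0.0485) left out, but not with Ptip_KO replicate 1 left out (0.144). Its cofactor Zfpm1 had 12.5 and 20.9 CPM in Ptip_KO, against 33.9 and 43.5 CPM in WT (limma adjusted p = 0.0524), and Runx1 had 194 and 185 CPM against 159 and 141 CPM (limma adjusted p = 0.107, and 0.0401 without WT replicate 1). Zfpm1 was also called lower by limma without any one of those same 3 libraries, at adjusted p of 0.00507, 0.00356 and 0.0154. The reads of Zfpm1 can include those of Gm20388, which overlaps it on the same strand.

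Red cell genes moved with these values. Of 15 red cell markers, 14 were in the table and every one of the 14 was on average lower in Ptip_KO. By limma 10 were called lower, beside 3.86% of all tested genes. By edgeR 5 were called lower and by DESeq2 12, beside 417 and 1126 of all 12357 tested genes. The red cell markers summed to 916 and 1225 CPM in Ptip_KO, against 2276 and 5020 CPM in WT. All 14 were higher in replicate 2 than in replicate 1 of both groups. None of the 14 was at 0 in any library. The part of red cell precursors in the values of Kit, Gata1, Zfpm1 and of the 10 genes was not tested. Of the other marker lists, 10 of 12 megakaryocyte and platelet genes were higher in replicate 2 of both groups, and none was at 0. Their sums were 62.3 and 77.9 CPM in Ptip_KO, against 75.7 and 85.9 CPM in WT. Itgb3 made up most of these sums, with 50.8 and 56.7 CPM in Ptip_KO, against 60.7 and 47.0 CPM in WT. Only 4 of the 12 passed the filter. Besides Itgb3, Itga2b, Pf4 and Vwf passed, and these had the same order of libraries as Mcpt8 and Prss34. Itga2b had 5.33 and 10.9 CPM in Ptip_KO, against 6.78 and 17.0 CPM in WT. Replicate 2 was higher in both groups for 9 of 12 stem and progenitor cell genes (sums of 717 to 892 CPM). It was so for 6 of 13 neutrophil genes (9940 to 14830 CPM) and 2 of 13 monocyte and macrophage genes (3041 to 4382 CPM). Mpo made up most of the neutrophil sum (5885 to 8481 CPM). Camp was 3.77-fold higher in replicate 2 of Ptip_KO and 5.09-fold in WT. Ngp (2.63 and 4.47) and Ltf (2.01 and 4.96) ran likewise, all in the library order of Prg2 and Epx. S100a8, S100a9, Lcn2, Retnlg, Cxcr2, Csf3r and Padi4 were lower in replicate 2 of Ptip_KO. Of the 13, 8 lay wholly below WT (27.3% of all tested genes), and limma called 1 lower, Padi4 (3.86% of all). The 9 T and NK cell markers summed to 2.02 to 5.29 CPM, with Cd3e and Cd8a at 0 in at least 1 library.

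Of 8 tested further eosinophil genes, 1 fell. The log2 fold change was below 0 for all 8, with a median of −1.13. Adgre4, a receptor of the F4/80 family found on macrophages as well as eosinophils, had 3.52 and 2.64 CPM in Ptip_KO, against 13.0 and 9.56 CPM in WT (log2 fold change −1.58, SE 0.20, limma adjusted p = 0.0151). It was not higher in replicate 2 of either group, unlike Prg2 and Epx. Many, but not all, markers of macrophages and dendritic cells were lower too. Of 13 monocyte and macrophage genes, 10 had a log2 fold change below 0. By limma 6 were called lower and none higher, beside 3.86% and 2.43% of all tested genes. Among the 6 were Adgre1, which encodes F4/80 (log2 fold change −3.00), C1qa (−1.96), Cd163 (−1.53) and Mrc1 (−1.38). Csf1r (0.33), Cd68 (0.12) and Cx3cr1 (0.08) were above 0. DESeq2 called 7 of the 13 lower and 1 higher, Csf1r (adjusted p = 0.00317). The 13 genes summed to 3578 and 3041 CPM in Ptip_KO, against 4382 and 3427 CPM in WT, and none was at 0. Of 8 tested dendritic cell genes, limma called 5 lower and 1 higher, beside 3.86% and 2.43% of all tested genes. Tcf4 was the gene called higher (log2 fold change 0.79), with means of 104 CPM in Ptip_KO and 59.9 CPM in WT. With Tcf4 included, the dendritic cell list summed to 181.6 and 169.8 CPM in Ptip_KO, against 216.3 and 221.3 CPM in WT. The part of these cells in the values of Adgre4 was not tested. Ccr3, the eotaxin receptor of eosinophils, had 1 and 21 reads (0.0131 and 0.2997 CPM) in Ptip_KO and 85 and 254 reads (1.15 and 3.22 CPM) in WT, with no overlap, at a limma adjusted p of 0.0807. It was called lower by DESeq2 (adjusted p = 0.00637) and by limma without WT replicate 1 (0.00099). Ear2, an eosinophil-associated ribonuclease, had 23.2 and 21.5 CPM in Ptip_KO, against 28.8 and 28.9 CPM in WT (limma adjusted p = 0.0949, DESeq2 adjusted p = 0.0286). Ear2 matches Ear1 at 96.4% of aligned positions, so counts of both are uncertain. Prg3, Ear1 and Ear6 were looked at after their values were seen. Prg3, the close relative of Prg2, had 0.433 and 1.91 CPM in Ptip_KO, against 2.01 and 8.43 CPM in WT, Ear1 had 1.13 and 7.25 against 1.82 and 19.0 CPM, and Ear6 had 0.854 and 5.48 against 1.82 and 20.6 CPM. All 3 were several times higher in replicate 2 than in replicate 1 of either group, as Prg2 and Epx were. Of the 10 further eosinophil genes in the table, 8 were higher in replicate 2 of both groups, but the ratio of replicate 2 to replicate 1 was only 1.20 in Ptip_KO and 2.12 in WT for Siglecf, an inhibitory lectin of eosinophils, and 0.926 and 1.004 for Ear2. With all libraries, limma called none of Prg3, Ear1 and Ear6 (adjusted p 0.233 to 0.676), and without WT replicate 1 it called all 3 lower (adjusted p = 0.00228, 0.0263 and 0.00843).

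**Figure D5:**
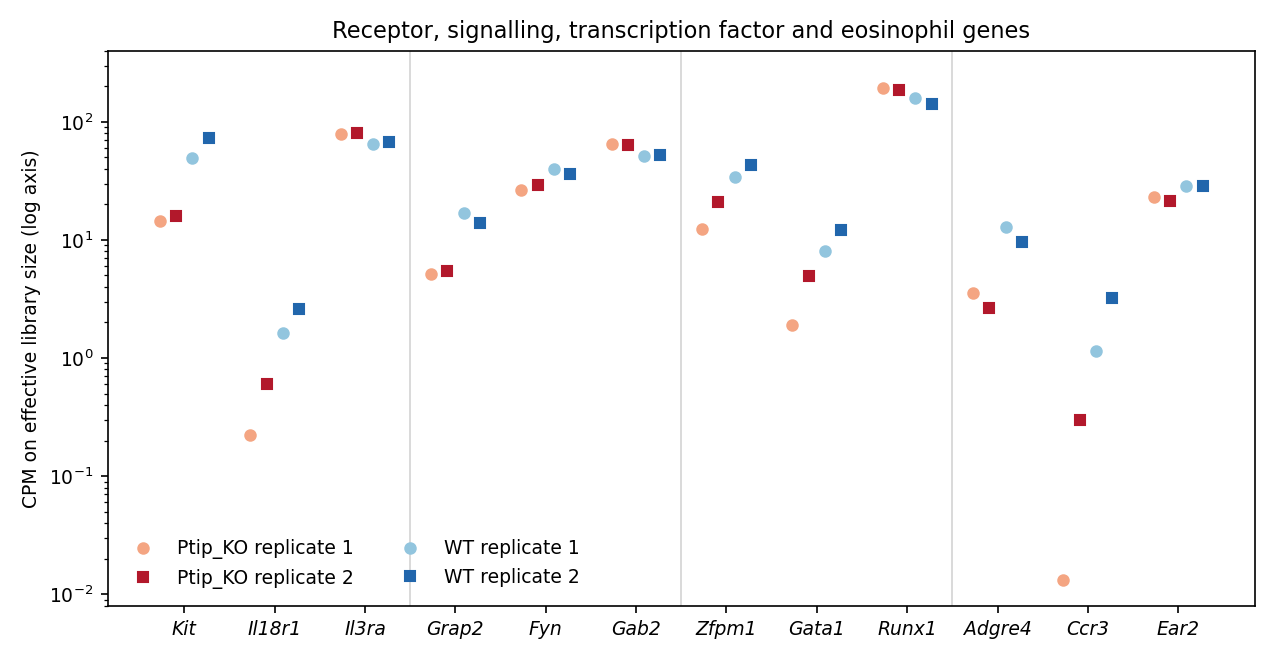
CPM in each library, on a log axis, of the genes with the smallest p among receptors (Kit, Il18r1, Il3ra), IgE receptor signalling (Grap2, Fyn, Gab2), transcription factors (Zfpm1, Gata1, Runx1) and other eosinophil genes (Adgre4, Ccr3, Ear2). The groups do not overlap for these 12 genes, of which Kit, Grap2 and Adgre4 were called lower in Ptip_KO by limma.

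None of 6 tested granule matrix and mediator genes passed by limma, edgeR or DESeq2, and none had an unadjusted limma p under 0.05. Without WT replicate 1, Ptgs1, a cyclooxygenase gene of prostaglandin synthesis, was called lower by limma (adjusted p = 0.017), against an adjusted p of 0.869 with all libraries. Slc18a2, the transporter that loads histamine into granules, had 0.801 and 1.87 CPM in Ptip_KO, against 1.11 and 2.32 CPM in WT, in the same order of libraries as Mcpt8 and Prss34 (log2 fold change −0.22, 95% confidence interval −1.02 to 0.58). Srgn, which encodes the granule proteoglycan serglycin, had 314 and 348 CPM against 311 and 425 CPM, and the leukotriene enzyme gene Alox5 had 32.4 and 28.2 CPM against 27.4 and 39.6 CPM. The groups overlapped for all 3. Of 10 further protease genes of mast cells and related granules, 2 were in the table. Mcpt1, Mcpt2, Mcpt4, Mcpt9, Cma1, Tpsb2, Tpsab1 and Tpsg1 were not. The part of mast cells in the values of Cpa3, Hdc, Fcer1a and Ms4a2 was not tested. Gzmb had 4 to 47 reads and did not pass the filter. Only Ctsg, the cathepsin G gene that neutrophil precursors also express, passed it. It had 894 and 830 CPM in Ptip_KO, against 754 and 1008 CPM in WT (limma adjusted p = 0.965).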

How the data were processed

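Libraries of 4 samples were prepared from poly(A) RNA with Illumina's stranded TruSeq kit for mRNA, per the labels' protocols. TopHat2 2.0.10, HTSeq 0.6.0, edgeR 3.8.6 and mm10 appear in the submitters' processing notes, with no roles, and whether counting used strand is not given in the sources used here. The deposited values are a signal per gene that the authors name edgeR CPM on the effective library size. All values were whole multiples of 1 read within 0.01 read, so reads were recovered (100% of 18276 values per library). The column WT_3 was matched by its description to WT replicate 2.

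Symbols came from the identifiers. Positions are those of GENCODE M21 (GRCm38, mm10), where 92.19% of identifiers had the same version. A gene was tested if 2 or more libraries reached 1 CPM. The test was limma 3.58.1 (R 4.3.3) on log2(CPM + 1), which understates changes of low genes, with a trended prior, 2-sided, with no covariate, and p-values were adjusted by Benjamini-Hochberg at 0.05. Recovered reads were tested with edgeR 4.0.16 and DESeq2 1.42.0. The alternatives also covered limma-voom, pseudocounts (0.25, 5), the filter (none, 5 CPM), a common sum, median-of-ratios factors, a robust prior, a replicate block and each library left out. The fit was tested on simulated data. Near-identical copies were sought with BLAST 2.17.0 (95% identity).

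Members, lists and rules were chosen with earlier results of these data known. Named genes were the 10 members, the called genes of each role of the wider list with the next by p up to 3 in all, the genes of the sorting antigens, and the 5 nearest patterns. The ratio of eosinophil to basophil genes, Prg3, Ear1, Ear6 and Fcer1g were added after values were seen.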

Additional observations from a re-analysis of the deposited data

How the results depend on the processing

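The log2 fold changes of the 10 genes kept their direction and stayed outside the threshold in 100 of 108 fits that used all libraries and in 24 of 40 that left out 1 library. Cd200r3, close to 0, reversed with a pseudocount of 5 (0.01), a common sum (0.03), edgeR (0.09) and DESeq2 (0.08). With 1 library left out, the ranges of the genes that reversed were −1.20 to 0.21 for Prss34, −0.97 to 0.25 for Cpa3, −0.31 to 0.84 for Hdc, −1.19 to 0.08 for Fcer1a, −0.82 to 0.09 for Ms4a2, −0.45 to 0.44 for Cd200r3, −0.53 to 0.24 for Gata2 and −1.88 to 0.32 for Epx. Mcpt8 (−1.16 to −0.16) and Prg2 (−2.80 to −0.34) did not reverse. With 1 library left out, between 0 and 2 of the 10 genes were called lower and between 0 and 1 higher, and 3 to 14 genes of the wider list were called lower and 0 to 3 higher. The lone library of a group was then assumed to vary like the other group. Over all genes, 777 were called, 452 to 1620 with 1 library left out and 1906 by DESeq2. In the wider list, 5 were called lower with no filter and 9 by DESeq2, and 1 was called higher with a common sum and 2 by DESeq2. With no filter, the 2 further genes were Il18r1 and Zfpm1. For the other settings the cause was not tested.

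The titles give both groups replicate numbers 1 and 2, but the second WT library is numbered 3 in its description. Nothing says that a number marks a shared litter or day. Over 12357 genes, the difference between replicates 2 and 1 correlated between the groups with r = 0.332, a description across genes that are not independent. With the replicate number as a block, 4 of the 10 genes were called lower by limma, Prg2 (adjusted p = 0.00584), Epx (0.0185), Mcpt8 (0.0311) and Prss34 (0.0492), with 10 genes of the wider list lower and 3 higher and 1721 of all genes called. With 2 numbers per group, whether the numbers pair the libraries cannot be told from these data.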
